A study of Mus musculus with 47 samples.

Results

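The mitosis genes described here are 38 mouse genes whose products drive, monitor or carry out chromosome segregation and cell division. They were chosen by name, as a fixed list of kinases, cyclins, checkpoint proteins, kinetochore and centromere proteins, spindle motors and chromosome proteins, and each was found once by its gene identifier among the 56748 genes of the count table. RNA was sequenced from B78-D14 cells, an amelanotic mouse melanoma line derived from B16 that lacks Cdkn2a, and from fragments of subcutaneous tumors grown from these cells in male C57BL/6 mice of about 8 weeks. This age is that of the study's methods, and its reporting summary gives an older range. Truncating mutations had been written into Mt-Nd5, a mitochondrially encoded subunit of respiratory complex I, with a mitochondrial base editor, and the study asked how they change the cancer cells and the tumors. The groups analysed, all labelled as untreated, were 4 cultures at 60% heteroplasmy of m.11,944, 4 cultures of control cells labelled wild type, 7 tumors from m.12,436 60% cells, 7 tumors from m.12,436 40% cells and 4 control tumors labelled wild type (001 to 004). The names of the columns do not spell out the groups of the cultures and mutant tumors, so the columns were matched to these groups from the study's headings and from how far the numbers run, and every difference between groups rests on that match. Heteroplasmy is the share of mitochondrial genomes that carry the mutation. The mutant lines were populations made by a single transfection or several in a row, so the groups compare cell populations as well as mutations, and a tumor fragment also holds cells of the host.

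A dividing cell makes most of these transcripts in G2 and M phase and destroys many of the proteins at the end of mitosis. Cdk1 with cyclin B starts mitosis, the spindle checkpoint holds anaphase until every kinetochore is attached, and the anaphase-promoting complex then ends mitosis by marking securin and cyclin B for destruction. Because the transcripts are scarce in resting cells, their summed level in bulk RNA is a common measure of how many cells are cycling. Bulk RNA cannot tell fewer dividing cells apart from less of each transcript per dividing cell.

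Many genes of late cell cycle phases carry short promoter elements that bind the DREAM, MuvB and FoxM1 complexes (the CHR element, TTTGAA or TTCGAA) and the factor NF-Y (CCAAT), and both were searched because the members moved together. In the 250 bases before and 50 after the annotated start of the canonical transcript (GENCODE, build GRCm39, either strand), TTTGAA was found in 19 of 38 members (50%) and in 17.1% of the 21630 protein-coding promoters of the same length. TTTGAA or TTCGAA was found in 21 members (55.3%) and in 18.8% of all promoters, CCAAT in 26 members (68.4%) and in 39.9% of all promoters, and CCAAT together with TTTGAA or TTCGAA in 18 members (47.4%) and in 8.25% of all promoters. Among 70 other mitosis genes that are not members, 35 (50%) held TTTGAA or TTCGAA, and among 40 DNA replication genes 4 (10%) did. A match of letters is a description of the window and not a bound site. The windows below run from 150 bases before to 30 after the start, 5′ to 3′ on the strand of the gene, with the matches to TTTGAA or TTCGAA and to CCAAT, on either strand, in capitals. They are shown for 4 of the members that were lower in m.12,436 60% tumors and hold both elements (Prc1, Cdca8, Hmmr and Ube2c), for Cdk1, the central mitotic kinase, and for Cenpa, which was also lower and holds CCAAT alone.
Prc1: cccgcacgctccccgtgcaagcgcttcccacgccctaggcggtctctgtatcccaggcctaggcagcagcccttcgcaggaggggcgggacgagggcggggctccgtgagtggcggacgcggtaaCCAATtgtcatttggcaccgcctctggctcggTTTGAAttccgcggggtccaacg
Cdca8: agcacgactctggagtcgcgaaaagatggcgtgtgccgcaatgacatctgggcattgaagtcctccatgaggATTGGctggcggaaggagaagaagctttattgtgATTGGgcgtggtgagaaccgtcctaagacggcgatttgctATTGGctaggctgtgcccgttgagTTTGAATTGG
Hmmr: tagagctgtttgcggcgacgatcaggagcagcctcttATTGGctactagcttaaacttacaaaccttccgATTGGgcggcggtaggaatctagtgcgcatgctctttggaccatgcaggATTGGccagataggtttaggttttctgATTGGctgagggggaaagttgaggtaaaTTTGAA
Ube2c: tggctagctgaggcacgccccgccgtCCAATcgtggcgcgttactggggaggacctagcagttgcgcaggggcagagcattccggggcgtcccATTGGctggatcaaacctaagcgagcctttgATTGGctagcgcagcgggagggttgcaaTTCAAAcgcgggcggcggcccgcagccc
Cdk1: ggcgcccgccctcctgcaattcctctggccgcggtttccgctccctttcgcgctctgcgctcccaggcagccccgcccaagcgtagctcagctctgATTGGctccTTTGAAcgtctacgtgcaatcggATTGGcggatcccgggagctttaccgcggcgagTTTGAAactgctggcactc
Cenpa: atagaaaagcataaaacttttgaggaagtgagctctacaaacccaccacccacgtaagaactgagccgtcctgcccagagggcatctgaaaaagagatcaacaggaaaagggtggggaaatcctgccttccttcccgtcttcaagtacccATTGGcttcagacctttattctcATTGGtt
The windows lie at chr7:79944037-79944216 (+ strand, Prc1), chr4:124830688-124830867 (- strand, Cdca8), chr11:40624251-40624430 (- strand, Hmmr), chr2:164611668-164611847 (+ strand, Ube2c), chr10:69188739-69188918 (- strand, Cdk1) and chr5:30823971-30824150 (+ strand, Cenpa) of GRCm39. With 0 as the first transcribed base, TTTGAA began at 7 in Prc1, 2 in Ube2c, 20 in Cdca8 and 24 in Hmmr, and at -45 and 11 in Cdk1. In Cdca8 the TTTGAA match and a CCAAT match on the other strand overlap.

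The 26 libraries held 16475735 to 36173502 counts, and the lowest count of any member was 190 (Ttk in an m.12,436 60% tumor), so that all 38 members passed the filter on low counts in every fit and none was lost. Values are CPM, counts relative to the library total after TMM scaling, which corrects the totals for differences in RNA composition. Exons of 7 members share 10% or more of their length with other genes, most of all Kif20a (61.5%, with Brd8 and Cdc23) and Spc25 (52.5%, with Nostrin). Ube2c (19%, with Tnnc2) and Prc1 (11.8%, with Rccd1), called below as lower in m.12,436 60% tumors, are also among them. Since the strand setting of the counting was not stated, counts of these 7 members may include their neighbors. Of the melanocyte lineage markers, Mitf was read at 194 to 727 counts in every library, while Tyr, the pigment enzyme, had 0 or 1 count in every library. Control tumor 003 stood apart, with 798 counts of Dct and 291 of Sox10, and control tumor 002 had 102 and 57. No other library had more than 10 counts of Dct or 9 of Sox10. Control tumor 003 also had the highest mitosis gene level of the control tumors, and the comparisons with control tumors are given without it as well.

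Levels per length of the canonical transcript differed widely among members. The counts cover all exons of a gene. These span 3241 bases in Ube2c, 1948 in Cdc20 and 9115 in Top2a, beside 967, 1854 and 5247 in the canonical transcript. Which member ranks highest therefore depends on the length used. In control tumors Ube2c, the ubiquitin-conjugating enzyme of the anaphase-promoting complex, was the highest member at 105 ± 21.9 CPM per kilobase of transcript (SD, n = 4). Cdc20, the activator of that complex, followed at 81.8 ± 5.88, and Top2a, the topoisomerase that untangles chromosomes, at 75.5 ± 10.2. The range of Ube2c overlapped those of both, so the order of these 3 is not resolved. Ttk, the kinase that recruits the spindle checkpoint, was the lowest at 3.86 ± 0.264 CPM per kilobase. By the same length Ube2c and Ttk were also the highest and lowest members in control cells, where Ube2c was at 207 ± 26.1 CPM per kilobase.

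Some mitosis genes were lower in m.12,436 60% tumors than in control tumors. All 38 members had a log2 fold change below 0, with a median of -0.29 and a range of -0.44 to -0.11, where the median over all 16213 genes tested was -0.00. Of the members, 7 passed an adjusted p of 0.1 as lower and 0 as higher in edgeR's quasi-likelihood test with Benjamini-Hochberg adjustment, beside 1.34% of all genes called lower and 0.962% called higher. In 15 members the 7 tumors at 60% all lay below all 4 control tumors, as did 2.66% of all genes. The mean log2 CPM over the 38 members was 5.56 to 5.87 in the m.12,436 60% tumors and 5.90 to 6.22 in the control tumors, so the groups did not overlap, although the highest of the former and the lowest of the latter are close.

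**Figure D1:**
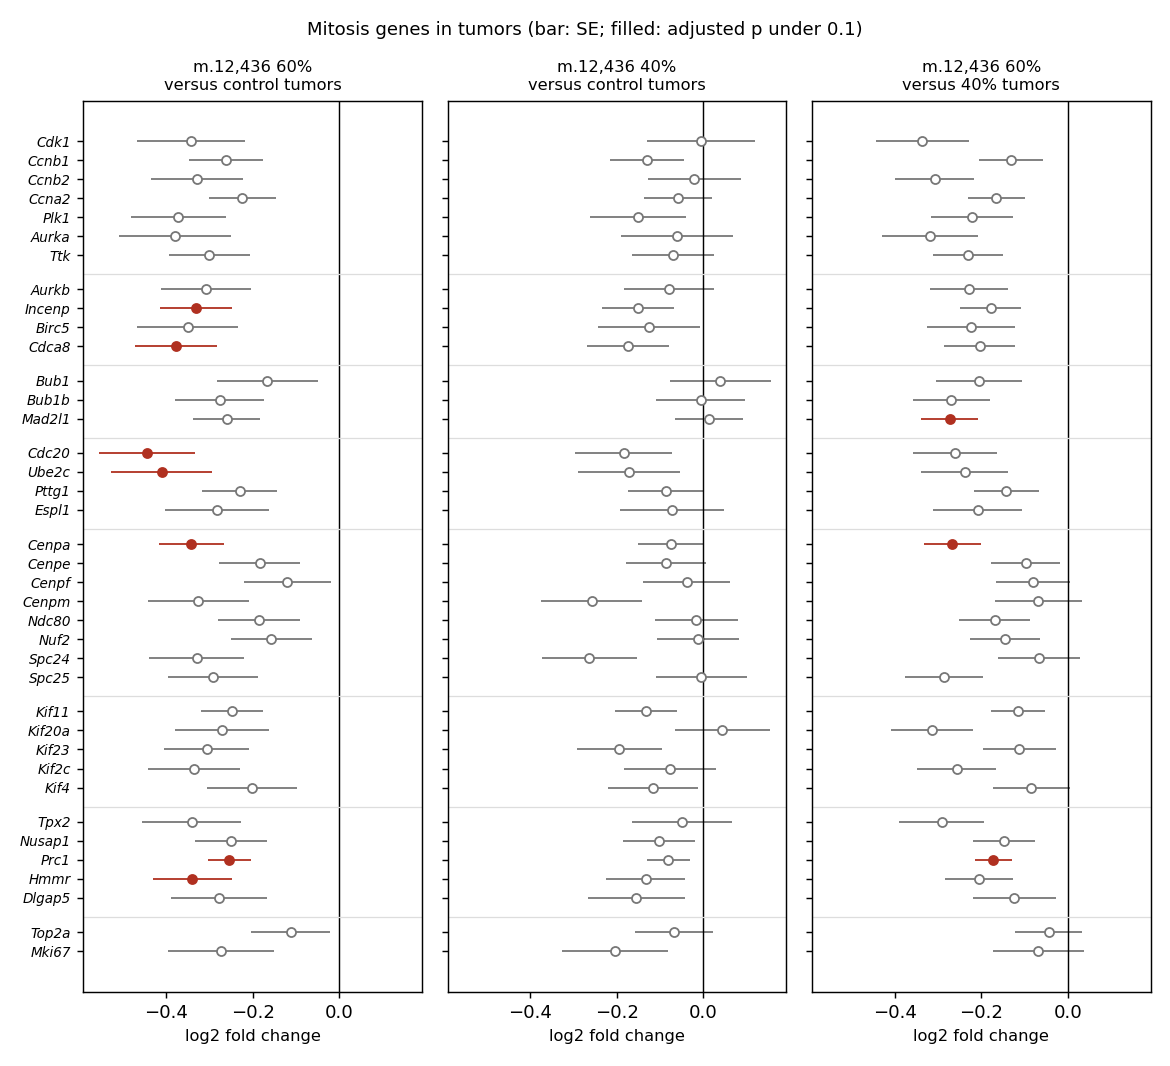
Log2 fold change of each of the 38 mitosis genes in the 3 tumor comparisons, in blocks by role; bars are the standard error and filled points passed an adjusted p of 0.1. All points of the 60% against control and the 60% against 40% panels lie below 0, from -0.44 to -0.11 in the first, while those of the 40% against control panel lie around -0.08.

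Cdc20 and Ube2c, which act in ending mitosis, had the largest differences. Cdc20 was at 90.4 to 130 CPM (median 110) in m.12,436 60% tumors and at 140, 152, 166 and 148 CPM in control tumors 001 to 004. All 60% tumors lay below all control tumors, and the log2 fold change was -0.44 ± 0.11 (SE; edgeR, adjusted p = 0.0614). Ube2c was at 70.8 to 85.8 CPM (median 75.6) against 91.8, 86.5, 133 and 94.4 CPM, with control tumor 003 the highest, and fell by 0.41 on the log2 scale (SE 0.12, adjusted p = 0.0995). Pttg1, the securin that guards sister chromatid cohesion, and Espl1, the separase that cuts it, did not pass, at -0.23 (adjusted p = 0.196) and -0.28 (adjusted p = 0.252).

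In the chromosomal passenger complex, which corrects faulty attachments and later steers cytokinesis, 2 of 4 members fell. Cdca8 (borealin) was at 33.6 to 43.5 CPM (median 41.4) in 60% tumors and at 53.6, 51.0, 55.8 and 47.9 CPM in control tumors, and the log2 difference was -0.38 ± 0.09 (SE; edgeR, adjusted p = 0.0614). Incenp, the scaffold of the complex, was at 91.9 to 117 CPM (median 106) against 127, 127, 155 and 131 CPM, a log2 fold change of -0.33 ± 0.08 (adjusted p = 0.0614). In both genes the groups did not overlap. Aurkb, its kinase, was at 57.0 to 72.8 CPM (median 64.1) against 74.0, 76.0, 93.9 and 75.8 CPM. Birc5 (survivin), which places the complex at centromeres, was at 46.6 to 57.3 CPM (median 54.6) against 70.5, 63.5, 81.3 and 53.8 CPM. Neither passed. Aurkb stood at -0.31 (adjusted p = 0.152) without overlap, and Birc5 at -0.35 (adjusted p = 0.149) with overlapping ranges.

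Of the spindle assembly and midzone factors, Prc1 and Hmmr fell. Prc1, which bundles the antiparallel microtubules of the midzone, had the smallest p of all members. It was at 74.4 to 78.5 CPM (median 75.0) in 60% tumors and at 88.1, 85.8, 97.2 and 88.7 CPM in control tumors. The spread among 60% tumors was small (SD 1.44), and the log2 fold change was -0.25 ± 0.05 (SE; edgeR, adjusted p = 0.0176). Hmmr, a microtubule-binding protein of spindle poles, was at 24.3 to 32.1 CPM (median 30.5) against 33.7, 33.7, 44.1 and 35.8 CPM and fell by 0.34 (SE 0.09, adjusted p = 0.078). Tpx2, the activator of Aurora A, Nusap1, which stabilizes spindle microtubules, and Dlgap5, which acts on kinetochore fibers, had log2 fold changes of -0.34, -0.25 and -0.28 and did not pass.

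Among 8 kinetochore and centromere genes, 1 fell. Cenpa, the histone H3 variant that marks the centromere, was at 49.0 to 63.7 CPM (median 57.5) in 60% tumors and at 71.7, 73.6, 80.8 and 66.7 CPM in control tumors, without overlap (log2 fold change -0.34 ± 0.08 SE; edgeR, adjusted p = 0.0356). Cenpm of the inner kinetochore had a log2 fold change of -0.33, and of the subunits of the NDC80 complex, which grips microtubules, Spc24 had -0.33, Spc25 -0.29, Ndc80 -0.18 and Nuf2 -0.16. The values were -0.18 for Cenpe, a kinetochore motor, and -0.12 for Cenpf, a large kinetochore protein. None of these 7 passed the threshold.

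The mitotic kinases and cyclins, the checkpoint and the motors were all below 0 but did not pass. Cdk1 was at 66.7 to 80.9 CPM (median 79.5) in 60% tumors and at 100, 86.1, 114 and 83.7 CPM in control tumors, and the log2 difference was -0.34 ± 0.12 (SE; edgeR, adjusted p = 0.18). Plk1, which acts from mitotic entry to cytokinesis, was at 70.0 to 90.8 CPM (median 81.6) against 93.2, 103, 125 and 97.6 CPM (-0.37 ± 0.11, adjusted p = 0.117). Ccnb1, the main cyclin of mitotic entry, was at 65.5 to 85.6 CPM (median 72.5) against 77.9, 86.9, 98.4 and 89.2 CPM (-0.26 ± 0.09, adjusted p = 0.144). The groups did not overlap for Cdk1 and Plk1 and did overlap for Ccnb1. Ccnb2, the second B-type cyclin, Ccna2, the cyclin of S and G2 phase, Aurka, the kinase of spindle poles, and Ttk had log2 fold changes of -0.33, -0.22, -0.38 and -0.30. The checkpoint genes Bub1, Bub1b and Mad2l1 had -0.17, -0.28 and -0.26. The 5 kinesins ranged from -0.33 for Kif2c, which takes microtubules apart, to -0.20 for the chromokinesin Kif4. Kif11, which pushes spindle poles apart, had -0.25, and Kif20a and Kif23, which work in cytokinesis, had -0.27 and -0.31.

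Top2a, the most abundant member in CPM, differed least. It was at 309 to 389 CPM (median 374) in 60% tumors and at 356, 358, 471 and 401 CPM in control tumors, with overlapping ranges and a log2 fold change of -0.11 ± 0.09 (SE; edgeR, adjusted p = 0.561). Mki67, which coats mitotic chromosomes and serves as the usual proliferation marker, was at 199 to 275 CPM (median 222) against 221, 227, 346 and 313 CPM. Its groups overlapped too, at -0.27 ± 0.12 (adjusted p = 0.273).

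Without control tumor 003 all 38 members stayed below 0 in m.12,436 60% tumors, with a median of -0.22, but 0 passed, beside 0.292% of all genes called lower. The smallest adjusted p among members was then 0.124, for Prc1 at -0.21. Fitting only the 2 groups compared, without the 40% tumors, gave 26 members as lower beside 3.63% of all genes. There were 2 without control tumor 001, 4 without 60% tumor 3 and 3 without 60% tumor 4, beside 89, 144 and 132 genes lower.

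At 40% heteroplasmy no difference from control tumors could be shown. In m.12,436 40% against control tumors 0 of 38 members passed, as did 0 of all genes (0% higher and 0% lower) in edgeR's test, while 825 genes and 2 members (Spc24 and Cenpm, both at -0.26) had an unadjusted p under 0.05. DESeq2 called 5 genes and 0 members. Of the members, 35 were below 0, the median was -0.08 and the range -0.26 to 0.04. The median was -0.02 without control tumor 003, with 0 members called. The mean log2 CPM over members was 5.71 to 6.17 in 40% tumors, a range that overlapped both other tumor groups.

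In m.12,436 60% against 40% tumors all 38 members were below 0, with a median of -0.20 and a range of -0.34 to -0.04, and 3 passed as lower and 0 as higher (edgeR, beside 0.993% of genes called lower and 0.814% higher). Mad2l1, the checkpoint protein that binds and blocks Cdc20, was at 53.3 to 64.6 CPM (median 60.3) in 60% tumors and at 61.6 to 84.1 CPM (median 74.2) in 40% tumors, a log2 fold change of -0.27 ± 0.07 (SE, adjusted p = 0.0634). Cenpa was at 61.5 to 77.0 CPM (median 69.6) in 40% tumors and differed by -0.27 ± 0.07 (adjusted p = 0.0648), and Prc1 was at 77.4 to 89.6 CPM (median 87.0) there and differed by -0.17 ± 0.04 (adjusted p = 0.0668). In each of the 3 genes the ranges of the groups overlapped. Cdk1 and Ccnb2 had log2 fold changes of -0.34 and -0.31 without passing, while Top2a and Mki67 were at -0.04 and -0.07. The 3 tumor comparisons share their samples and are not independent of each other. Leaving out single tumors moved the count of members from 0 (without m.12,436 60% tumor 1, 40% tumor 1 or 40% tumor 6) to 10 (without 40% tumor 4), with 1 without 60% tumor 4 and 7 without 40% tumor 5. Genes called lower in these fits numbered 60, 75, 78, 259, 74 and 196, in the same order.

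Markers of other cell types were read in the same tumors. Of 19 leukocyte markers tested, 15 were above 0 in 60% against control tumors, 1 of them past the threshold (Itgam, 0.38, adjusted p = 0.0261 in edgeR), and 16 of 19 were above 0 in 60% against 40% tumors, 2 past it (Itgam and Lyz2). Marker sums are given as CPM of the library total, without TMM scaling. Summed over the 20 leukocyte markers the level was 2019 to 3914 CPM in 60% tumors, 1707 to 2637 in 40% tumors and 2089 to 2893 in control tumors. Within the 60% tumors, tumor 5 had both the lowest leukocyte sum (2019 CPM) and the lowest mean of the mitosis genes (5.56), and tumor 7 had the highest of both (3914 CPM and 5.87). In the other groups this order did not hold. Control tumor 003 had the lowest leukocyte sum of its group (2089 CPM) and the highest mean (6.22). Among 40% tumors, tumor 2 had the lowest sum (1707 CPM) and the highest mean (6.17), and tumor 4 the highest sum (2637 CPM) and the lowest mean (5.71). The fibroblast markers were 2 of 8 above 0 and the endothelial markers 0 of 6 above 0 in 60% against control tumors, none past the threshold, and summed endothelial markers were 126 to 217 CPM in 60% and 170 to 238 CPM in control tumors. Pmel, a pigment cell gene, was at 2.88 CPM on average in control tumors and 0.633 CPM in 60% tumors (adjusted p = 0.0456), with 267 counts in control tumor 003, 44 in control tumor 002 and 6 to 19 in the other 16 tumors. Without control tumor 003 Itgam was still past the threshold (0.43, adjusted p = 0.0513 in edgeR) and Pmel was not (-0.56, adjusted p = 0.559), and 18 of 19 leukocyte, 4 of 8 fibroblast and 1 of 6 endothelial markers were above 0. Summed skeletal muscle markers were 2.34 to 387 CPM (median 2.73) in 60% tumors, 43.4 to 374 CPM (median 174) in 40% tumors and 2.56 to 256 CPM in control tumors. None of the 8 muscle markers passed in 60% against 40% tumors, where all were below 0 (median -0.83). The part of other cells in the lower mitosis genes was not tested.

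**Figure D2:**
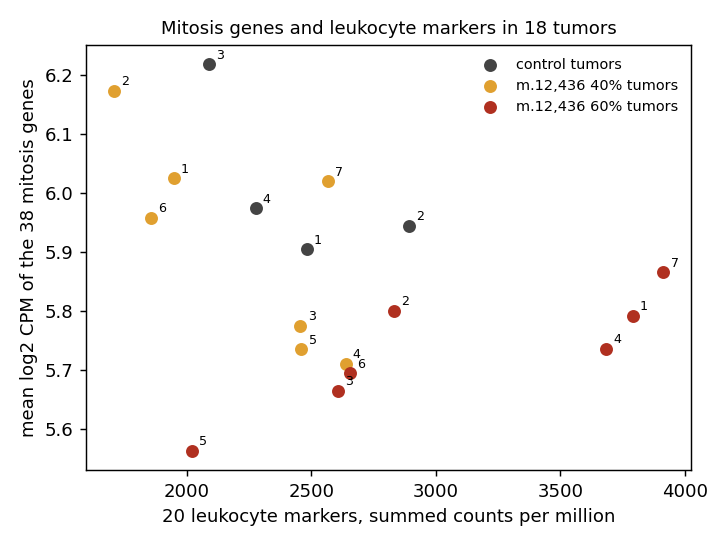
Each point is a tumor, numbered by replicate, with the summed CPM of 20 leukocyte markers on the horizontal axis and the mean log2 CPM of the 38 mitosis genes on the vertical axis. The 60% tumors lie at or below 5.87 at every leukocyte level from 2019 to 3914 CPM, and control tumor 3 is the highest point at 6.22.

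In the 18 tumors the members varied together. After subtracting group means, the Pearson correlation between members over the 18 tumors had a median of 0.72 over the 703 pairs (range 0.04 to 0.96), where the median over all pairs of 12317 expressed genes was 0.00202. The 18 points share 1 normalization and include host cells, and this is given as a description. Plk1 followed the mean of the other members most closely (r = 0.98), followed by Kif2c (0.95) and Tpx2 (0.94), while Cenpf (0.58), Kif11 (0.62), Spc24 (0.63) and Nusap1 (0.64) followed it least. Among the genes outside the list most like the members' mean, of 12265, were Racgap1 (0.96), Foxm1 (0.95), Tacc3 (0.95), Clspn (0.94), Tuba1b (0.94), Lmnb1 (0.94) and Melk (0.94). Foxm1 is a transcription factor of G2 and M phase genes, Racgap1 and Tacc3 act in cytokinesis and on the spindle, and Clspn serves the DNA replication checkpoint.

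Other cell cycle genes were counted in lists that exclude the members. Of 70 other mitosis genes, 66 were below 0 in 60% against control tumors and 7 passed as lower, with a median of -0.21. The 3 of smallest adjusted p in edgeR were Ckap2, a spindle protein (-0.48, adjusted p = 0.00535), Kif20b, a cytokinesis motor (-0.33, 0.0307), and Cep55, an abscission protein (-0.39, 0.0414). All 40 DNA replication genes were below 0 (median -0.21) and 2 passed, Orc6 (-0.40, adjusted p = 0.0296) and Gins3 (-0.40, 0.0565). Of 22 mitotic transcription regulators 2 passed as lower, Tfdp1 (-0.29, adjusted p = 0.0331) and E2f4 (-0.28, 0.0697), and the median was -0.04. None of 15 subunits of the anaphase-promoting complex (median -0.06) and none of 8 G1 cyclins and kinases (median -0.08) passed, and among 14 cell cycle inhibitors Klf4 alone passed, as higher (0.58, adjusted p = 0.0977). Without control tumor 003, Ckap2 alone among all these lists passed (-0.38, adjusted p = 0.0336), and the medians were -0.15 for other mitosis genes and -0.13 for replication genes. In 60% against 40% tumors 5 other mitosis genes passed as lower, among them Ckap2 (-0.34, adjusted p = 0.0189), Cep55 (-0.31, 0.0668) and Anln, a ring protein of cytokinesis (-0.24, 0.0828), as did 1 replication gene, Orc6 (-0.29, 0.0674), and none of the other 4 lists. In 60% against control tumors the 21 members with TTTGAA or TTCGAA had a median of -0.29 and the 17 without -0.28, and the medians were -0.30 for the 26 members with CCAAT and -0.27 for the 12 without. The 7 members that passed all hold CCAAT, and a difference between these sets was not tested.

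In culture the m.11,944 60% mutation was not accompanied by a detectable change of mitosis genes in the unpaired test. In edgeR's test 0 of 38 members passed in m.11,944 60% against control cells, beside 0.00773% of genes called higher and 0.0309% lower, and 1 member, Cenpm (0.46), had an unadjusted p under 0.05. limma-voom and DESeq2 also called 0 members, beside 5 and 84 of 12930 genes. The median of the members was 0.09 (range -0.19 to 0.46), with 29 above 0. Same-numbered cultures of both lines deviated together from their group means. Both lines share the split of cultures described below, and pairing by single numbers apart from it was not tested. A fit with the replicate number as a block was made as well. In it, 3.02% of genes were called higher and 4.09% lower, and 3 members passed as higher and 0 as lower. Mki67 differed by 0.34 ± 0.07 (SE; edgeR, adjusted p = 0.0398), Cenpm by 0.47 ± 0.13 (adjusted p = 0.0848) and Mad2l1 by 0.23 ± 0.07 (adjusted p = 0.0985). In m.11,944 60% cultures 1 to 4 Mki67 was at 88.2, 139, 361 and 379 CPM, and in control cultures 1 to 4 at 63.6, 125, 279 and 294 CPM, so that it was higher in the mutant of each pair. Mad2l1 was at 87.1, 96.8, 158 and 149 CPM against 72.9, 74.0, 144 and 134 CPM, again higher in each pair. Cenpm was at 24.9, 23.4, 32.6 and 22.9 CPM against 15.5, 14.8, 21.0 and 24.1 CPM, higher in 3 of 4 pairs.

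Replicates 1 and 2 stood apart from replicates 3 and 4 in both lines. The labels do not say what set these cultures apart, and the split was noticed in these data, so it is described without a test. In 31 of 38 members all 4 cultures numbered 1 or 2 lay below all 4 numbered 3 or 4, and in 1 member, Ndc80, they lay above, beside 27.1% and 26.5% of all 12930 genes. The median difference on the log2 CPM scale was -0.55, and it was -0.64 within the m.11,944 60% line and -0.53 within control cells. Mki67 differed most, at -1.71, from 63.6 to 139 CPM in cultures 1 and 2 and from 279 to 379 CPM in cultures 3 and 4.

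By role, the medians were -1.05 for the spindle checkpoint and -0.81 for the motors, where all 3 and all 5 members lay lower without overlap, and -0.41 for kinetochore and centromere genes, where 4 of 8 did. Birc5 was at 53.8 to 60.1 CPM in cultures 1 and 2 and at 130 to 149 CPM in cultures 3 and 4, and Plk1 at 89.9 to 110 and at 199 to 259 CPM. Cdk1 went from 127 to 135 CPM up to 206 to 244 CPM, Cdc20 from 123 to 145 up to 225 to 270 CPM, Aurkb from 89.8 to 99.4 up to 128 to 141 CPM, and Ccnb1 from 143 to 163 up to 201 to 242 CPM. None of these ranges overlap. Top2a differed less, at 481 to 543 against 601 to 756 CPM, and Prc1, Nusap1, Ccnb2, Cenpe, Cenpf and Cenpm overlapped. Members with TTTGAA or TTCGAA had a median difference of -0.45 and those without one of -0.75.

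Genes of other cell cycle lists differed between the same cultures. In 35 of 40 DNA replication genes (median -0.86) and 54 of 70 other mitosis genes (median -0.64) cultures 1 and 2 lay below 3 and 4 without overlap. The share over all genes was 27.1%. Ccne2, a cyclin of S phase entry, differed by -1.93, and Foxm1 by -1.10. Among 12 cell cycle inhibitors 6 lay above and 3 below, beside 26.5% and 27.1% of all genes. Gadd45a, a stress-induced growth arrest gene, was at 5.08 and Cdkn1a, the inhibitor p21, at 0.57. The 3 below were Tob1 (-0.80), Ccng1 (-0.62) and Cdkn2c (-0.44). These genes were picked from the lists after their values were seen.

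**Figure D3:**
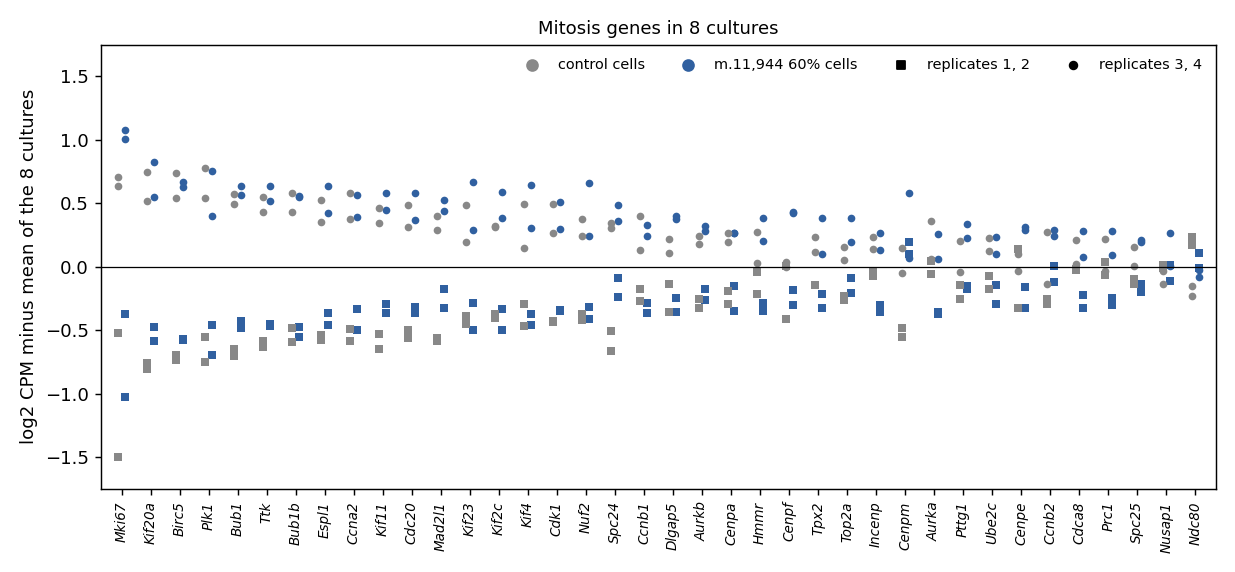
Log2 CPM of each mitosis gene in the 8 cultures minus the mean of the 8, ordered by the difference between replicates 1 and 2 (squares) and 3 and 4 (circles), with control cells in gray and m.11,944 60% cells in blue. Squares lie below circles in 31 of 38 genes, and Mki67 at the left has the widest gap.

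Tumors held less mitosis gene RNA than cultures. On a scale shared by all 26 libraries, 36 of 38 members passed as lower and 0 as higher in control tumors against control cells (edgeR, beside 33.5% of genes called lower and 41.3% higher), and 24 members did not overlap, beside 23.6% of all genes that were lower without overlap. The median was -0.86 and the range -1.56 to 0.24. Control tumors held leukocyte, fibroblast, endothelial and muscle markers that were lower in culture (leukocyte sum 2089 to 2893 CPM against 2.74 to 4.30), so host cells and a change in the cancer cells cannot be told apart.

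Aurka fell most, from 109 ± 14.9 CPM in control cells to 36.7 ± 3.74 in control tumors (SD, n = 4 each; edgeR, log2 fold change -1.56 ± 0.16 SE, adjusted p = 6.63e-09). Ccnb1 fell from 219 ± 47.9 to 82.9 ± 7.51 CPM (-1.40 ± 0.15, adjusted p = 1.14e-08) and Ndc80 from 72.7 ± 11.8 to 27.7 ± 3.69 CPM (-1.39 ± 0.12, adjusted p = 1.58e-10). Ube2c (-1.28), Tpx2 (-1.29), Hmmr (-1.25) and Spc25 (-1.18) also fell by more than Prc1 (-0.87) or Nusap1 (-0.92), which had small errors in both groups. Pttg1 fell least among those that passed (-0.30 ± 0.12, adjusted p = 0.0307), and it was at 0.024 with library totals in place of TMM and called in 11 of 16 alternatives.

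Mki67 and Ttk did not pass. Mki67 was at 260 ± 57.7 CPM in control tumors and 220 ± 131 CPM in control cells on this scale (log2 fold change 0.24 ± 0.37, adjusted p = 0.567 in edgeR), where the SD of control cells spans the culture split described above. Ttk was at -0.42 ± 0.24 (adjusted p = 0.116). In 2 other lists most genes also fell, with 65 of 70 other mitosis genes and 36 of 40 replication genes lower and none higher. Of 22 mitotic transcription regulators 10 were lower and 4 higher, and of 8 G1 cyclins and kinases 5 were lower and 1 higher. Of 15 subunits of the anaphase-promoting complex 10 were lower and 0 higher. Of 14 inhibitors 6 were higher and 3 lower, beside 41.3% and 33.5% of all genes. Without control tumor 003, 36 members were lower, beside 5601 of 16813 genes, and the median of the members was -0.95. With library totals alone in place of TMM 26 members were lower and the median was -0.54. That scaling moved the median of all genes from 0.10 to 0.43, and the genes called from 6841 higher and 5536 lower to 8817 higher and 3315 lower.

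**Figure D4:**
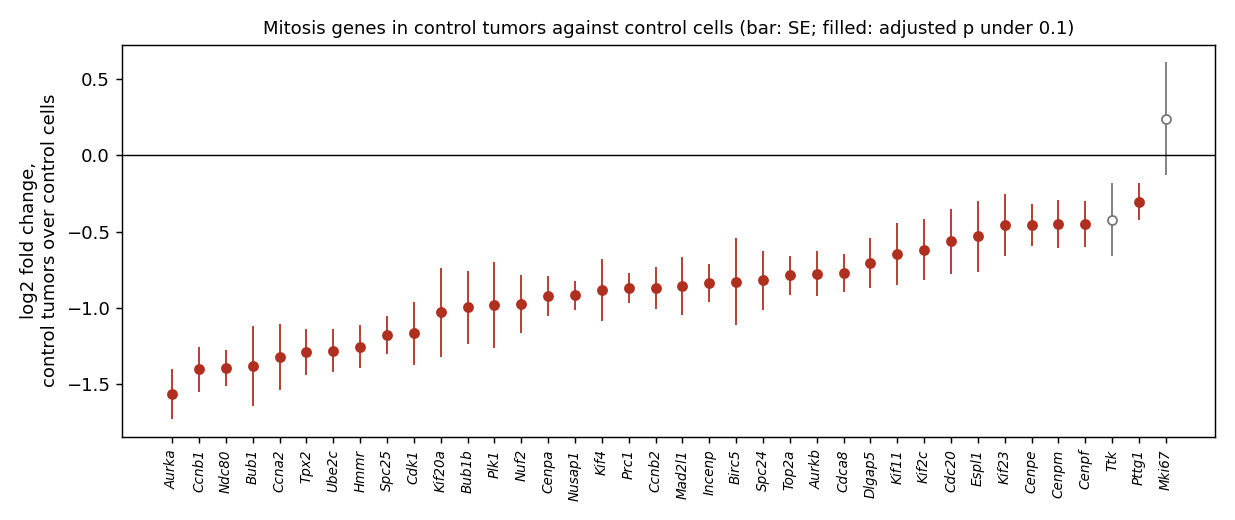
Log2 fold change of each mitosis gene in control tumors over control cells, in order of size, with standard errors; filled points passed an adjusted p of 0.1. The values run from -1.56 for Aurka to 0.24 for Mki67, and Ttk and Mki67 are the open points.

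The mean over members puts all groups side by side. On the shared log2 CPM scale the m.12,436 60% tumors were at 5.64 ± 0.10 (SD, n = 7), the 40% tumors at 5.82 ± 0.17 (n = 7), the control tumors at 5.92 ± 0.13 (n = 4), control cells at 6.74 ± 0.36 (n = 4) and m.11,944 60% cells at 6.79 ± 0.41 (n = 4). The 40% and control tumors lie within each other's spread, as do the cultures of the 2 lines. All 18 tumors (5.46 to 6.12) were below all 8 cultures (6.41 to 7.22), and cultures 1 and 2 were the nearest to the tumors at 6.41 to 6.45.

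**Figure D5:**
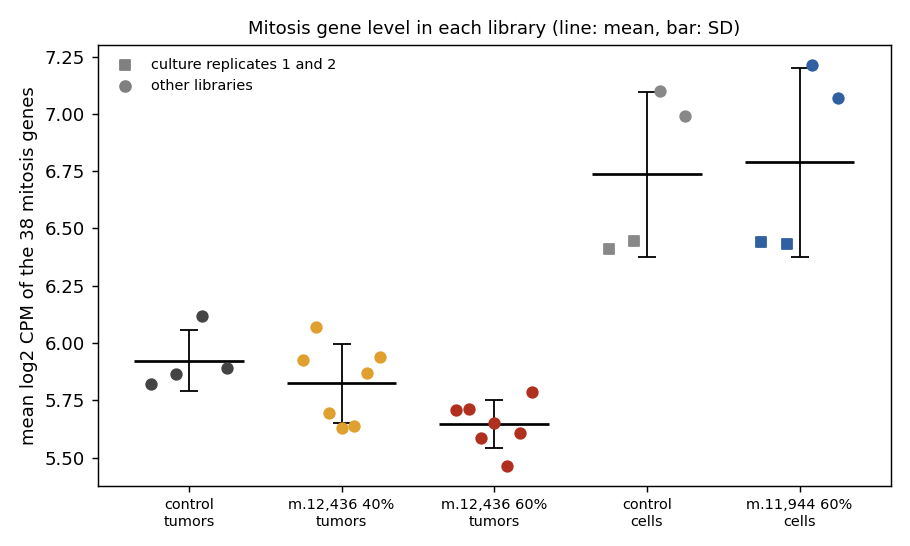
Mean log2 CPM of the 38 mitosis genes in each of the 26 libraries on a shared scale, with the group mean as a line and the SD as a bar; squares are culture replicates 1 and 2. The tumors lie between 5.46 and 6.12 and the cultures between 6.41 and 7.22, in 2 separate pairs within each line.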

How the data were processed

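RNA of 8 cultures and 18 tumors was sequenced. The authors aligned reads to GRCm39 with STAR and derived the deposited gene counts with featureCounts and an Ensembl annotation; the values are raw counts, and the strand setting was not given in the sources used here. Of 47 columns 26 were used. Columns of control tumors carry the number of their label, while the others were matched by inference, from headings in the study's source data and from the extent of the numbering. The remaining 21 could not be matched to samples and were not used here. Counts were tested with edgeR 4.0.16 (R 4.3.3; TMM, filterByExpr, robust quasi-likelihood test), with Benjamini-Hochberg adjustment over all genes and a threshold of 0.1. Tumors were fitted together, cultures together, and control tumors against control cells in a fit of all 26 libraries. Log2 CPM used a prior count of 2. Alternatives used DESeq2 1.42.0, limma 3.58.1 (voom), other scalings, filters and thresholds, and left out each library in turn. Scripts were tested on simulated data.

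The members and the other gene lists were chosen with earlier results of these data known. All members are accounted for by role. Library values are given for 8 fixed genes and for up to 8 called members of smallest p, up to 3 called genes are named from each other list, and further genes were named after their values were seen. The genes most like the members' mean were taken by rank of correlation, and 1 of them is not reported here. Of 56748 gene identifiers 56017 matched the GENCODE annotation of GRCm39, which gave lengths and promoters. Nothing in the labels says that cultures of a group were grown separately, so their p-values measure only the spread between these samples. The tumor labels number samples and do not name the mice, while the paper describes its bulk tumor RNA as taken from individual tumors. Deviations from group means correlated at 0.718 to 0.832 between same-numbered cultures of both lines (mean 0.796) and at -0.264 on average between others. Deviations within a group cancel out, so the value for the others largely follows from the same-numbered ones. Both lines share the culture split described above, which these correlations include. Pairing of cultures by single numbers, apart from that split, was not tested.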

Additional observations from a re-analysis of the deposited data

Results flagged for a closer look

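Within groups of 4 or 7 libraries, 85 sets of values were examined for a library far from the others, of which 4 had one. Chance gives about 1 in 20 for independent sets, and these sets are not independent, since the members varied together. Control tumor 003 was the highest of its group for Aurkb (93.9 CPM, next 76.0) and for Incenp (154.9 CPM, next 130.6). Tumor 5 of the m.12,436 60% group was the lowest for Top2a (308.6 CPM, next 362.8), and tumor 2 of that group was the highest for Prc1 (78.5 CPM, next 75.9).

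The 60% and 40% tumors differed in their distance from control tumors, by a direct test of 60% against 40% tumors in edgeR, for Mad2l1 (-0.27, adjusted p = 0.0634), Cenpa (-0.27, adjusted p = 0.0648) and Prc1 (-0.17, adjusted p = 0.0668). The control tumors cancel in this test.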

How the results depend on the processing

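Of the single gene values under alternatives, 704 kept direction and call, 80 kept direction and lost the call, and 1 reversed: Pttg1 in control tumors against control cells, at 0.024 with library totals only. These counts pool all comparisons, and most come from the members called in control tumors against control cells. Calls were less stable in the comparisons among tumors. In m.12,436 60% against control tumors, members called numbered 21 with DESeq2, 11 with library totals only and 2 at an adjusted p of 0.05. Genes called lower then numbered 491, 293 and 97 of 16213. With only the 2 groups fitted 26 members were called, beside 573 of 15794 genes lower. Leaving out single libraries gave 0 members (without control tumor 003, 48 genes lower) to 10 (without control tumor 004, 285 genes lower). In 60% against 40% tumors members called numbered 9 with DESeq2, 5 with library totals only and 0 at an adjusted p of 0.05. Genes called lower then numbered 385, 230 and 65. Leaving out single libraries there gave 0 to 10 members, with 259 genes lower at 10. The cause of these shifts was not tested. Prc1 and Cenpa were called in 19 of 20 alternatives for 60% against control tumors, and Ube2c in 6. For 60% against 40% tumors Mad2l1 and Cenpa were called in 18 of 23 and Prc1 in 15.

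With a replicate block 3 members were called higher in m.11,944 60% against control cells, beside 390 of 12930 genes. In 60% against control tumors 4 members were called lower, beside 93 of 16213 genes, although the labels do not say that numbers pair the tumors. Same-number correlations between these tumor groups were -0.346 to -0.0245. With single libraries left out, the median over members ranged from -0.32 to -0.22 for 60% against control tumors, from -0.14 to -0.02 for 40% against control, from -0.23 to -0.14 for 60% against 40%, from -0.98 to -0.73 for control tumors against control cells and from -0.10 to 0.22 in cultures, where it was negative without m.11,944 60% culture 3 or 4 or control culture 1 or 2. The 4 control tumors limit the precision of every comparison with them.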
